A study of Mus musculus with 8 samples.

Results

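Higd1a, the HIF factors with their oxygen sensors, well known hypoxia targets and the enzymes of glycolysis from glucose 6-phosphate to lactate were followed in sorted mouse beta cells with and without Chd4. The set holds 39 genes of the 55487 in the files, taken by symbol after matching Ensembl identifiers to GENCODE M21. It was drawn up to ask whether Higd1a was higher together with other hypoxia targets or by itself.

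The samples were 4 Control and 4 Chd4KO libraries of beta cells sorted by flow cytometry from dispersed mouse islets. All mice of both groups had received tamoxifen, so the drug itself is common to the groups, and the design text names the mutant Chd4Db, read here as a deletion in beta cells of Chd4, a nucleosome remodeling ATPase. The labels used here give neither the Cre driver, the alleles of the Controls, nor age or sex. Each library title carries its own number, but nothing states whether a library is 1 mouse or a pool, so p-values measure the spread between these libraries. Full-length cDNA was made from a small amount of RNA with a SMART-Seq kit and turned into libraries with Nextera XT, which keep no strand.

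In cells with enough oxygen, prolyl hydroxylases mark the alpha subunits of the hypoxia-inducible factors, and the von Hippel-Lindau protein sends them for destruction. When oxygen falls the alpha subunits persist, pair with Arnt and bind the short DNA motif ACGTG or GCGTG near targets that include most glycolytic enzymes, Vegfa, Bnip3 and Higd1a. Beta cells rely on glycolysis that feeds mitochondria, the step by which they sense glucose, and keep lactate dehydrogenase A and the plasma membrane lactate carriers low.

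Short promoter stretches of Higd1a, Bnip3, Ankrd37 and Pgk1 show how the motifs stand there. For each gene the 30 bases with the most ACGTG and then the most GCGTG matches were taken. They hold motifs by choice and do not stand for the set. Each runs 30 bases in the gene's direction within the 250 bases before a RefSeq start site (GRCm38.p6), with both motifs in capitals on either strand (CACGT and CACGC are the reverse forms, and overlapping matches run together).
Higd1a, chr9:121857843-121857872, minus strand: tagcctGCGTGCGTGgcgttcgcggagccc
Bnip3, chr7:138909594-138909623, minus strand: CACGCgccgCACGTGccaCACGCtcccccg
Ankrd37, chr8:46000068-46000097, minus strand: agcagtACGTGcctagctcggctcgcatca
Pgk1, chrX:106186950-106186979, plus strand: ACGTGacaaatggaagtagCACGTctcact
The Higd1a window held 2 GCGTG matches and 0 ACGTG matches. Bnip3 held 2 ACGTG and 3 GCGTG matches, Ankrd37 held 2 of each, and Pgk1 held 2 ACGTG and 0 GCGTG. RefSeq windows were found for 37 of the 39 genes, some with several start sites. ACGTG was in 23 of their 54 windows (42.6%) against 16.6% of 32851 windows of all genes, and GCGTG in 30 (55.6%) against 28.2%. These are letter matches and not binding sites. The set was chosen to hold known hypoxia targets, and windows of the same gene can overlap, so the shares are a description only.

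2 Chd4KO libraries stood apart in ways that reach these genes. Reads assigned to genes, recovered from the TPM steps, ranged from 14928092 to 41014291 per library. In Chd4KO replicate 4 the insulin genes took 62.0% of all transcripts on the TPM scale (a share of the library, scaled to a common total) against 32.4 to 47.0% elsewhere, and 12702 genes reached 1 TPM against 14788 to 15923. In the same library genes with longer transcripts were lower, with a median log2 difference from the Control mean of -0.19 up to 1 kb and of -1.24 at 4 to 6 kb. Chd4KO replicate 2 held 38192 TPM of acinar enzyme and other acinar markers in sum, against 37.0 to 1540 TPM in the other 7 libraries. The summed beta cell markers, almost all insulin and Iapp, were 396394 TPM or more in each library. Of the 10, Mafa (154 to 183 TPM in Control, 20.4 to 69.8 TPM in Chd4KO) and Slc2a2 (145 to 207 and 46.6 to 98.1 TPM) were called lower. Nkx6-1 (84.4 to 106 and 47.2 to 66.6 TPM), G6pc2 (3245 to 3620 and 1675 to 2780 TPM) and Slc30a8 (620 to 894 and 380 to 551 TPM) were not called. They too were lower in all Chd4KO libraries, as were 11.3% of all genes tested. Ins1, Ins2, Iapp, Pdx1 and Ucn3 overlapped between groups. Among markers of other cells, Rbp4 (1 of 3 tested delta markers), Cd68 and Fcer1g (2 of 7 leukocyte) were called higher and Cftr (1 of 5 ductal) lower. The delta marker Hhex was lower in all Chd4KO libraries (0.464 to 1.04 against 1.05 to 1.45 TPM), and Sst overlapped. The summed level of each of these lists overlapped between groups, as did the alpha, PP, acinar and erythroid sums. The endothelial sum (5.62 to 6.12 TPM in Control, 6.41 to 9.81 TPM in Chd4KO) and the mesenchymal sum (0.148 to 0.610 and 0.816 to 1.52 TPM) were low and did not overlap. Both were higher in Chd4KO, with 0 of their markers called. The part of such cells in the values below was not tested. In bulk RNA, fewer cells of a type and less RNA per cell cannot be told apart.

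**Figure D1:**
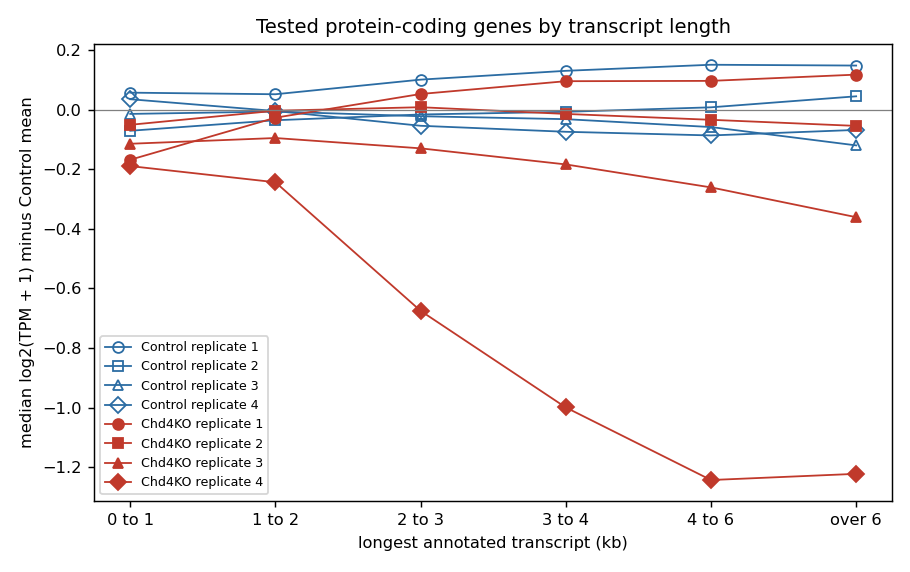
Median difference of log2(TPM + 1) from the Control mean over tested protein-coding genes (y axis), binned by longest annotated transcript in kb (x axis), 1 line per library. Chd4KO replicate 4 falls from -0.19 to -1.24 with length, while Chd4KO replicate 3 lies between -0.09 and -0.36.

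Chd4 itself checked the labels. Its level was 15.98, 13.4, 11.1 and 12.3 TPM in Control replicates 1 to 4 and 8.38, 6.18, 5.27 and 2.59 TPM in Chd4KO replicates 1 to 4, without overlap. Group means were 13.2 ± 2.08 and 5.60 ± 2.40 TPM (SD, n = 4 each; exact permutation test of the difference, two-sided, p = 0.0286, the smallest that 4 against 4 can give). In the limma fit over all genes Chd4 was not called (change -1.18 ± 0.29, adjusted p = 0.0725), and 7 of 19 alternative fits called it. Where a pair of means is given, the first is of Control and the second of Chd4KO, each ± SD over its 4 libraries; changes are Chd4KO minus Control on log2(TPM + 1) ± SE, with p-values from limma adjusted by Benjamini-Hochberg unless named otherwise.

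Higd1a, a small protein of the inner mitochondrial membrane that stabilizes respiratory complexes, was the only one of the 39 genes called changed, except that array weights, an alternative fit, added 3 others. It lies on the minus strand at chr9:121848563-121858362 (mm10; ENSMUSG00000038412). Its level was 1.58, 1.17, 1.18 and 0.701 TPM in Control replicates 1 to 4 and 44.5, 14.2, 41.4 and 34.4 TPM in Chd4KO replicates 1 to 4. All Chd4KO libraries were above all Controls, the lowest Chd4KO value being 8.99 times the highest Control value. Group means were 1.16 ± 0.359 and 33.6 ± 13.6 TPM (SD over 4 libraries), a 29.1-fold ratio. On log2(TPM + 1) the gene rose by 3.90 ± 0.35 (SE, limma, Benjamini-Hochberg adjusted p = 0.000839). The 95% interval was 8.70- to 25.7-fold of TPM + 1, a scale that understates low genes. Among the 233 genes called higher it ranked 8 by size of change. The rise rested on 34, 66, 42 and 34 reads in Control and 980, 305, 909 and 1239 reads in Chd4KO.

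The lowest Chd4KO level of Higd1a was in replicate 2, the library with the acinar markers. Without replicates 2 and 4 the change was 4.36 (limma, adjusted p = 0.000192), and without replicate 4 alone it was 3.85 (adjusted p = 0.00155). It was called in each of 19 alternative fits, with changes from 3.73 to 5.11. A pseudogene with nearly the same sequence, Gm9790, went from a mean of 0.0740 to 3.46 TPM, and reads of the pair cannot be assigned with certainty. The antisense gene Gm47112 shares 683 exonic bases with Higd1a, and an unstranded library cannot separate their reads there.

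Higd2a, the related protein that helps assemble cytochrome c oxidase and respiratory supercomplexes, was not called changed. It stood at 105, 74.2, 85.5 and 88.5 TPM in Control and 58.8, 79.1, 61.8 and 51.3 TPM in Chd4KO. The groups overlapped through Chd4KO replicate 2, and the change was -0.49 ± 0.20 on the log2 scale (limma, adjusted p = 0.267). The mean level of Higd2a was 76.4 times that of Higd1a in Control and 1.87 times in Chd4KO. Higd1b and Higd1c, the other family members, each had 3 reads in a single library (0.500 TPM in Control replicate 1 and 0.694 TPM in Chd4KO replicate 2) and 0 in the rest.

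No other gene of the set was called with Higd1a. A filter of at least 1 TPM in at least 4 libraries left 32 of the 39 genes. Of these, 1 (Higd1a) was called (2.97% of 15189 genes tested were, in either direction). It was higher (limma, adjusted p under 0.05; 1.53% of all genes tested) and 0 were lower (1.44% of all). At an unadjusted p under 0.05 the counts were 1 higher (4.24% of all) and 4 lower (12.0% of all), namely Vegfa, Pkm, Higd2a and Pfkfb2. A voom fit to recovered reads called 1 higher (3.28% of all) and 0 lower (1.87% of all). Without Chd4KO replicate 4 the counts were again 1 (2.96% of all) and 0 (2.50% of all).

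Apart from Higd1a, changes ran from -0.85 to 0.49 on the log2 scale, and the lowest adjusted p was 0.214. The upper ends of their 95% intervals, as folds of TPM + 1, ran from 0.895 (Vegfa) to 2.08 (Pfkp). All were below the lower end of 8.70 for Higd1a on that scale. The median change of the 32 genes was -0.18, beside -0.25 for all genes tested. Median-of-ratios scaling put these at 0.07 and -0.02, and leaving out Chd4KO replicate 4 at 0.03 and -0.05. Of the 32 genes, 20 had their lowest level of all libraries in Chd4KO replicate 4. The log2 difference of replicate 4 from the mean of the other Chd4KO libraries had a median of -0.66 over 10 members with transcripts up to 2000 bases and of -0.89 over 22 longer ones. The part of that library's insulin share and transcript length pattern in these values was not tested.

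Among the 32 tested genes, groups did not overlap for Higd1a, higher (3.54% of all genes tested), and for Arnt, Vegfa, Pfkfb2, Aldoc and Pkm, lower (11.3%). Below the filter, Epas1 and Pfkfb3 also had all Chd4KO libraries above all Controls, as deposited and with median-of-ratios scaling. With that scaling the higher set of tested genes was Higd1a, Egln2, Pdk3, Eno2, Eno3 and Pklr (7.85% of all). The lower set was Arnt, Vegfa, Pfkfb2 and Tpi1 (7.70%). Array weights, which give less weight to deviating libraries, also called Pklr higher (adjusted p = 0.0452) and Vegfa (0.0384) and Pfkfb2 (0.0398) lower; no other alternative fit called a further gene of the set.

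**Figure D2:**
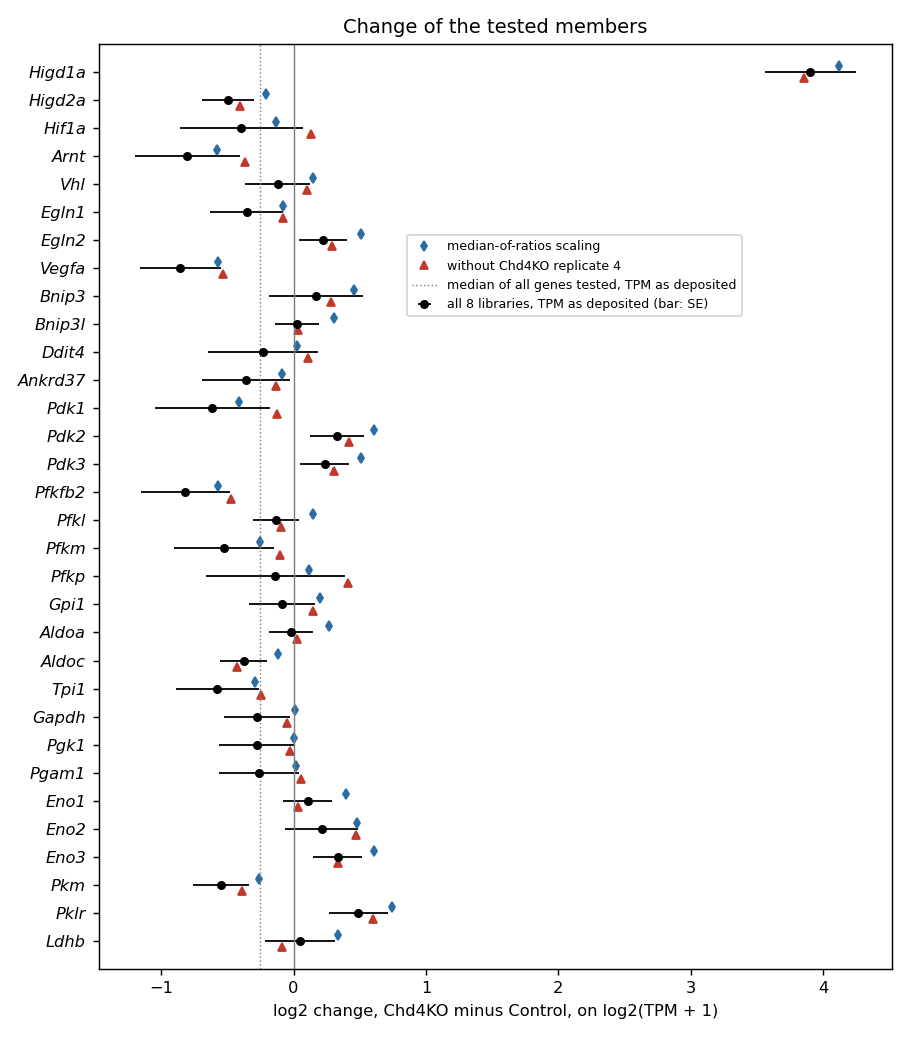
Log2 change, Chd4KO minus Control, on log2(TPM + 1) for the 32 tested genes (x axis), ordered by role (y axis). Black points with SE bars use all 8 libraries, blue diamonds median-of-ratios scaling and red triangles all but Chd4KO replicate 4; Higd1a lies at 3.85 to 4.12 under the 3 settings and all others between -0.85 and 0.75.

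Among the HIF factors, Hif1a, the alpha subunit of most cells, was at 29.7, 25.8, 24.8 and 24.0 TPM in Control and 33.1, 30.7, 22.8 and 5.91 TPM in Chd4KO. Replicates 1 and 2 of Chd4KO were above all Controls, and replicate 4 was far below them. The change was -0.39 ± 0.46 (adjusted p = 0.652), and 0.13 without replicate 4. Arnt, its partner, had 11.1, 13.4, 11.5 and 12.1 TPM in Control and 10.8, 9.42, 7.42 and 2.003 TPM in Chd4KO. Every Chd4KO value was below every Control value, the closest being 10.8 against 11.1 TPM, and the change of -0.80 ± 0.40 did not pass the test (adjusted p = 0.354).

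Epas1, which encodes HIF-2 alpha, was too low to test, with 0, 1, 1 and 3 reads in Control and 11, 6, 6 and 17 reads in Chd4KO. All Chd4KO libraries were higher (0.149 to 0.272 TPM against 0 to 0.0336 TPM), and a fit without the filter gave an adjusted p of 0.102. Endothelial cells are known to express Epas1, and the sum of 9 of their markers was 5.62 to 6.12 TPM in Control and 6.41 to 9.81 TPM in Chd4KO. Egfl7 was higher in all Chd4KO libraries (1.5 TPM or less in Control against 2.35 to 3.89 TPM) and Esam lower (3.89 to 4.37 against 2.47 to 3.80 TPM). The defining Cdh5 and Kdr were at 0.0902 TPM or less in every library, and Pecam1 was 0.687, 1.11, 0.0667 and 0.0136 TPM in Chd4KO against 0.0433 to 0.322 TPM in Control. Hif3a, whose product can dampen the other factors, had 2 to 5 reads in Control and 5, 49, 10 and 1 in Chd4KO, with replicate 2 highest. Hif1a made up 95.6% or more of the alpha subunit transcripts in every library.

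The oxygen sensors and Vhl did not pass the test. Vhl, the recognition subunit of the ligase, averaged 18.7 ± 1.90 and 17.7 ± 5.43 TPM in Control and Chd4KO. Egln1, the main prolyl hydroxylase of HIF and itself a hypoxia target, was at 33.2, 30.8, 31.0 and 27.1 TPM in Control and 29.6, 28.4, 28.4 and 12.9 TPM in Chd4KO. Only replicate 4 lay below the Control range. Egln2 was at 73.2, 62.3, 61.1 and 61.9 TPM in Control and 73.6, 93.1, 72.3 and 65.0 TPM in Chd4KO, the groups overlapping through Control replicate 1 (change 0.22 ± 0.18, adjusted p = 0.528). Egln3, the hydroxylase most often induced by hypoxia, was at 0.532 TPM or less in every library and was not tested. The share of Egln2 in the summed prolyl hydroxylase transcripts was 67.8% ± 1.44 in Control and 75.5% ± 5.57 in Chd4KO (SD over 4 libraries), without overlap, and that of Egln1 was 32.0% and 24.1%. Egln1 has the longer transcript (3594 against 2107 bases). Its share was 16.4% in replicate 4, the library low in long transcripts. It was 23.3 to 28.6% in the other Chd4KO libraries and 30.3 to 33.5% in Control. The part of transcript length in these shares was not tested.

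Vegfa, the vascular growth factor, had the most negative change of the 5 tested hypoxia targets in the set. It stood at 178, 201, 182 and 168 TPM in Control and 132, 131, 115 and 50.8 TPM in Chd4KO. All Chd4KO libraries were below all Controls, opposite to Higd1a, and the change was -0.85 ± 0.31 (adjusted p = 0.214; -0.53 without replicate 4).

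Bnip3, a mitochondrial receptor for mitophagy, was at 127, 141, 122 and 120 TPM in Control and 96.3, 324, 119 and 114 TPM in Chd4KO. As deposited, replicate 2 of Chd4KO was far above all others, and the remaining 3 were below all Controls. The change was 0.17 ± 0.36 (adjusted p = 0.801) with all libraries and -0.25 without replicates 2 and 4, so its sign on that scale rests on replicate 2. With median-of-ratios scaling the change was 0.46 ± 0.35 (limma, adjusted p = 0.525). No fit with that scaling left out replicate 2. Bnip3l, its relative in mitophagy, kept between 27.3 and 36.6 TPM in all libraries (change 0.02 ± 0.17, adjusted p = 0.947). Bnip3 shares 504 exonic bases with the antisense Gm45507.

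Ddit4, which restrains mTOR signalling under stress, was at 17.1, 16.1, 14.6 and 13.6 TPM in Control and 8.88, 29.3, 17.2 and 5.82 TPM in Chd4KO. Ankrd37, a direct HIF target, was at 18.3, 21.8, 22.3 and 19.2 TPM in Control and 10.2, 25.8, 23.4 and 9.49 TPM in Chd4KO. In both genes, as deposited, replicate 2 of Chd4KO was the highest library and replicates 1 and 4 were below the Control range. Their changes were -0.23 ± 0.42 and -0.36 ± 0.33 (adjusted p = 0.769 and 0.577). Car9, a cell surface carbonic anhydrase, had 0 to 4 reads in Control and 0, 8, 0 and 3 in Chd4KO and was not tested.

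On TPM as deposited, the order of the Chd4KO libraries was not the same for all targets. Replicate 2 had the lowest Higd1a level and the highest Bnip3, Bnip3l, Ddit4 and Ankrd37 levels, whereas Vegfa, like Higd1a, was highest in replicate 1 (132 TPM, beside 131 TPM in replicate 2). Replicate 2 also held the acinar markers, whose part in these values was not tested. In replicates 1 and 4, Higd1a was 44.5 and 34.4 TPM as deposited, while Vegfa, Bnip3, Ddit4 and Ankrd37 were all below their Control ranges. Bnip3l was below its range in replicate 1 (27.3 TPM) and inside it in replicate 4 (30.4 TPM). Median-of-ratios scaling divides replicate 4 by 0.545 and the other libraries by 0.960 to 1.20, which raises replicate 4 against the rest. Positions of single libraries after that scaling were not examined, so those of replicate 4 hold for deposited TPM only.

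**Figure D3:**
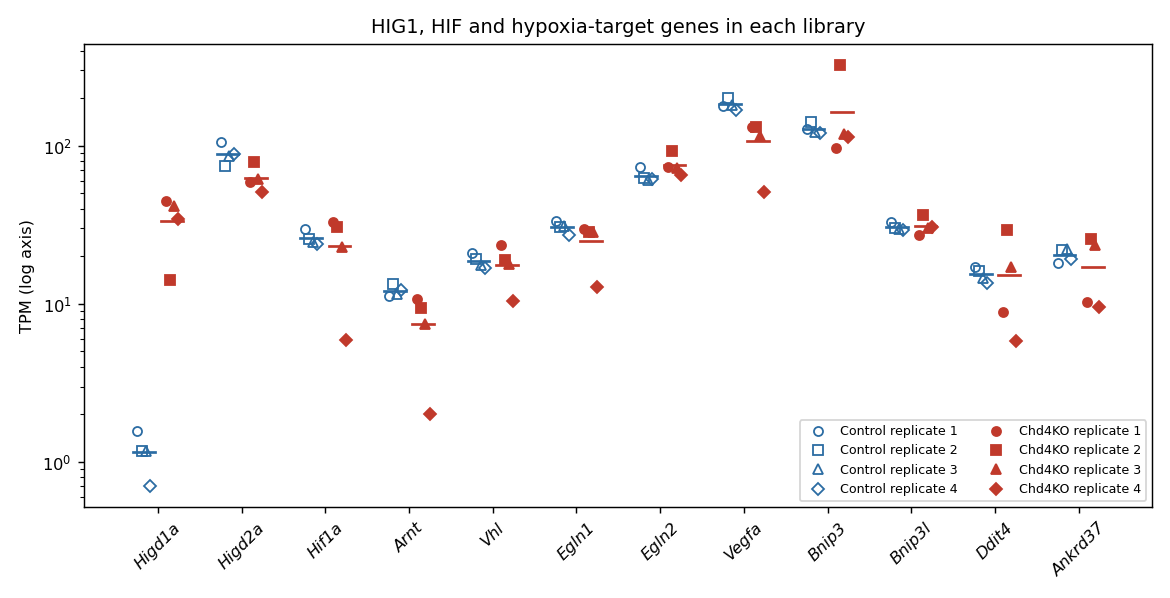
TPM on a log axis (y) of 12 HIG1, HIF, oxygen sensing and hypoxia-target genes (x), open blue symbols for Control and filled red for Chd4KO, symbol shape for replicate, line for the mean of 4. Higd1a is separated between groups (0.701 to 1.58 against 14.2 to 44.5 TPM), while Chd4KO replicate 4 is lowest for Hif1a, Arnt and Vegfa and replicate 2 is highest for Bnip3 and Ddit4.

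Pyruvate dehydrogenase kinases inhibit pyruvate dehydrogenase in the mitochondrial matrix and so hold back the step from pyruvate to acetyl-CoA, and Pdk1 is the classical HIF target among them. Pdk1 stood at 8.86, 9.80, 8.92 and 7.34 TPM in Control and 9.01, 7.37, 7.44 and 1.28 TPM in Chd4KO, overlapping except for replicate 4 (change -0.61 ± 0.43, adjusted p = 0.485). Its share of the summed Pdk transcripts was 14.9% ± 1.35 in Control and 8.77% ± 4.45 in Chd4KO (SD over 4 libraries), without overlap. Pdk1 has the longest transcript of the tested kinases (5185 bases against 2246 and 2115). Its share was 2.48% in replicate 4, 8.91 to 12.6% in the other Chd4KO libraries and 13.9 to 16.8% in Control. The part of transcript length in this share was not tested. Pdk2, the kinase with the most transcripts here, averaged 28.8 ± 5.03 and 36.4 ± 6.24 TPM (change 0.33 ± 0.20, adjusted p = 0.436). Pdk3 averaged 20.4 ± 1.93 and 24.4 ± 4.31 TPM, and Pdk4, under the filter, ranged from 0.0240 to 3.31 TPM in Chd4KO alone.

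At the phosphofructokinase step, the bifunctional enzymes Pfkfb2 and Pfkfb3, which set the level of its activator fructose 2,6-bisphosphate, had levels that lay on opposite sides of Control. Pfkfb2 had 15.2, 16.2, 16.6 and 15.1 TPM in Control and 14.6, 10.4, 8.90 and 3.65 TPM in Chd4KO. The groups did not overlap, although 14.6 and 15.1 TPM lay close together (change -0.82 ± 0.34, adjusted p = 0.276). Pfkfb3, the isoform induced by hypoxia, was below the filter with 0.597, 0.478, 0.350 and 0.447 TPM in Control and 3.19, 3.46, 1.74 and 0.603 TPM in Chd4KO. Its groups did not overlap, replicate 4 barely exceeding Control replicate 1, and a fit without the filter gave an adjusted p of 0.208.

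Of the 17 genes of glycolysis in the set, from Gpi1 to the pyruvate kinases with the Pfkfb enzymes, 16 were tested and 0 called by limma in either direction (1.53% of all genes tested were called higher and 1.44% lower). At an unadjusted p under 0.05 there were 0 higher and 2 lower (4.24% and 12.0% of all), and voom called 0 in either direction. The summed level of 15 enzymes was 1724 ± 106 TPM in Control against 1494 ± 298 TPM in Chd4KO. The Chd4KO sums were 1806, 1581, 1499 and 1092 TPM, against 1657 to 1882 TPM in Control, so as deposited replicate 1 lay inside the Control range and the other 3 below it. These sums are shares of a library, and insulin took 62.0% of replicate 4. The part of insulin in the sums was not tested, and no sum was taken after scaling. The median change of the 16 tested genes was -0.20 as deposited and 0.07 with median-of-ratios scaling.

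The upper part of the pathway showed mostly overlapping levels. Gpi1, which isomerizes glucose 6-phosphate, averaged 51.4 ± 6.25 and 49.9 ± 14.1 TPM. The phosphofructokinase subunits Pfkl, Pfkm and Pfkp had changes of -0.13, -0.53 and -0.14 (adjusted p = 0.681, 0.487 and 0.897). Pfkp was most variable, at 30.6, 37.3, 14.0 and 4.80 TPM in Chd4KO against 16.97 to 21.6 TPM in Control, so that 2 libraries were above and 2 below the Control range.

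Aldoa, the main aldolase, averaged 384 ± 15.9 and 381 ± 46.6 TPM (change -0.02 ± 0.17, adjusted p = 0.956). Aldoc was at 6.79, 8.52, 6.01 and 7.54 TPM in Control and 4.48, 4.99, 5.82 and 5.98 TPM in Chd4KO. These groups did not overlap as deposited but did after median-of-ratios scaling (change -0.38 ± 0.18, adjusted p = 0.338).

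Enzymes of the lower part included Tpi1, Gapdh, Pgk1 and Pgam1, each lowest in Chd4KO replicate 4. Tpi1, which interconverts triose phosphates, was at 139, 133, 125 and 129 TPM in Control and 127, 112, 95.3 and 43.9 TPM in Chd4KO, replicate 1 within the Control range (change -0.58 ± 0.31, adjusted p = 0.391). Gapdh averaged 284 ± 31.3 and 243 ± 70.9 TPM, Pgk1 91.4 ± 11.5 and 79.3 ± 30.6 TPM, and Pgam1 87.9 ± 1.95 and 78.2 ± 28.8 TPM. Changes of these 3 ran from -0.28 to -0.26, close to the median of all genes tested. Gapdh has 90 near copies of at least 95% identity over at least 200 bases, so its level carries that doubt.

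The enolases had small positive changes and the pyruvate kinases changes of opposite sign, without a call. Eno1, the ubiquitous enolase, averaged 121 ± 15.7 and 131 ± 18.8 TPM, Eno2 17.9 ± 2.99 and 21.6 ± 6.88 TPM and Eno3, the muscle form, 12.2 ± 2.16 and 15.5 ± 1.72 TPM (changes 0.11, 0.21 and 0.33). Pkm, the main pyruvate kinase of the libraries, was at 473, 451, 418 and 405 TPM in Control and 369, 289, 348 and 212 TPM in Chd4KO. All Chd4KO values were below all Controls (change -0.55 ± 0.21, adjusted p = 0.246); a near copy, Gm6560, averaged 15.5 and 10.2 TPM.

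Pklr, the liver and red cell isoform, was at 7.63, 7.59, 4.82 and 5.52 TPM in Control and 8.31, 10.6, 11.5 and 7.10 TPM in Chd4KO. Only replicate 4 fell inside the Control range (change 0.49 ± 0.22, adjusted p = 0.317), and Pklr shares 711 exonic bases with Hcn3. Its share of pyruvate kinase transcripts was 1.43% ± 0.236 in Control and 3.05% ± 0.582 in Chd4KO (SD over 4 libraries), and the groups did not overlap. Pklr and Pkm have longest transcripts of 2902 and 2432 bases. The part of transcript length or of the Hcn3 overlap in this share was not tested.

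Ldhb, the lactate dehydrogenase that favours pyruvate, was at 30.2, 26.6, 25.7 and 20.03 TPM in Control and 15.8, 30.1, 28.2 and 35.3 TPM in Chd4KO, with the extremes of all libraries in Chd4KO (adjusted p = 0.926). Slc16a3, the lactate exporter induced by hypoxia, stayed at 0.186 TPM or less in every library.

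**Figure D4:**
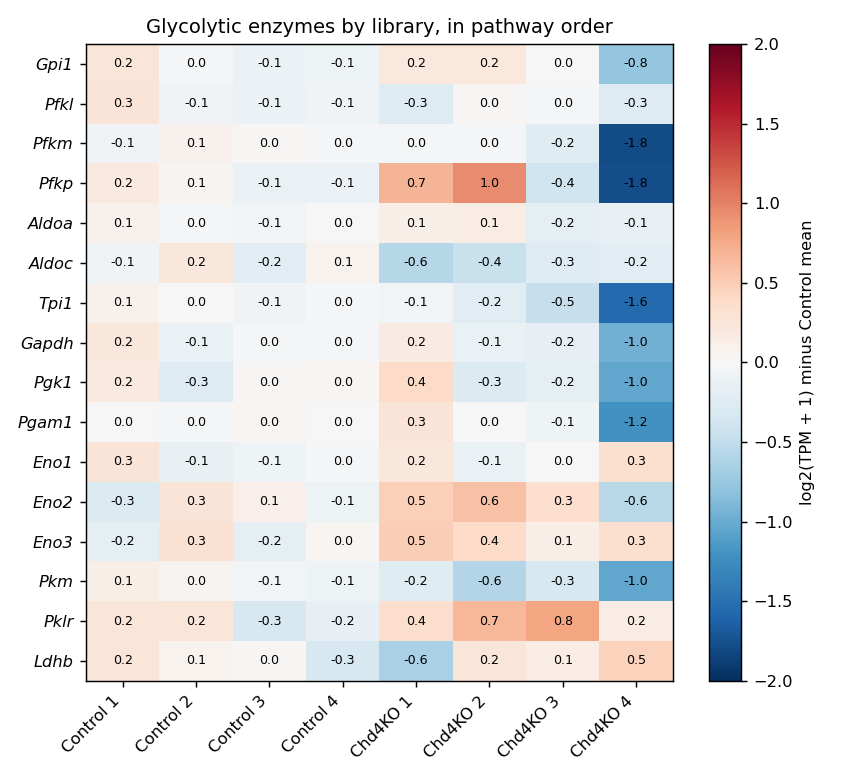
Difference of log2(TPM + 1) from the Control mean (colour and printed value) for 16 enzymes in pathway order (rows) in each of the 8 libraries (columns). The Chd4KO replicate 4 column holds the lowest values, down to -1.8 for Pfkm and Pfkp, while Pklr is positive in all 4 Chd4KO libraries.

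Further HIF targets outside the set gave 2 genes that rose. Of 44 listed genes found, 28 were tested, 2 were called higher and 0 lower (1.53% and 1.44% of all genes tested). P4ha2, a catalytic subunit of collagen prolyl 4-hydroxylase, was at 3.51, 5.66, 7.83 and 5.81 TPM in Control and 31.1, 38.1, 27.6 and 24.8 TPM in Chd4KO. Each Chd4KO value exceeded each Control value, and the gene rose by 2.25 ± 0.24 (limma, adjusted p = 0.00168), called in 19 of 19 alternative fits. Its paralogue P4ha1, also a HIF target, averaged 38.9 ± 3.59 and 39.95 ± 17.8 TPM (change -0.12 ± 0.39, adjusted p = 0.878).

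Trf, which encodes transferrin, the iron carrier, was at 1.06, 0.83, 0.924 and 0.207 TPM in Control and 2.74, 5.33, 8.97 and 13.7 TPM in Chd4KO. The groups did not overlap. Trf reached the filter's 1 TPM in 1 Control library only and so passed through Chd4KO; it rose by 2.16 ± 0.40 (limma, adjusted p = 0.0238). The call held in 10 of 18 alternative fits. Leaving out any 1 of the 4 Control libraries or Chd4KO replicate 3 ended it, with adjusted p from 0.0640 to 0.0894, and Trf overlaps the annotated gene Gm20425.

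The remaining 26 tested targets were not called. Slc2a1, the glucose transporter induced by hypoxia, averaged 20.7 ± 4.39 and 21.8 ± 8.43 TPM (change 0.00 ± 0.31, adjusted p = 0.998), and Ndrg1 averaged 77.4 ± 4.23 and 56.0 ± 30.5 TPM (adjusted p = 0.472). The 3 with the most transcripts, Mt1, Mt2 and Nfil3, had changes of -0.49, -0.82 and -1.11 (adjusted p = 0.672, 0.608 and 0.326). Ldha and Hk1, both low in beta cells, averaged 1.59 ± 1.06 and 2.49 ± 1.81 TPM and 0.254 ± 0.0707 and 0.394 ± 0.368 TPM. The median of the 28 was -0.32 as deposited and 0.03 without Chd4KO replicate 4.

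Of 14 HIF regulators, all tested, 1 was called higher and 0 lower (1.53% and 1.44% of all genes tested), and at an unadjusted p under 0.05 there were 1 higher and 4 lower (4.24% and 12.0% of all). Arnt2, a relative of Arnt best known in neurons, was at 0.826, 0.386, 0.532 and 0.538 TPM in Control and 6.84, 3.31, 3.15 and 1.56 TPM in Chd4KO. The groups did not overlap. Arnt2 passed the filter only through Chd4KO, where it is high, and rose by 1.48 ± 0.31 (limma, adjusted p = 0.0410). The call held in 10 of 18 alternative fits and ended without any 1 Control library or Chd4KO replicate 2 or 3 (adjusted p from 0.0753 to 0.144). Cited2, which competes with HIF for its coactivators, averaged 105 ± 13.9 and 66.8 ± 20.7 TPM (adjusted p = 0.212), Siah2 87.0 ± 30.6 and 45.04 ± 13.3 TPM (0.250) and Elob, a subunit of the Vhl ligase, 75.3 ± 16.01 and 77.2 ± 20.3 TPM (0.957).

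Of 20 further genes of glycolysis and lactate handling, 12 were tested and limma called 0 in either direction. At an unadjusted p under 0.05 there were 1 higher and 3 lower (4.24% and 12.0% of all genes tested), and voom called 1 higher and 0 lower (3.28% and 1.87%). Pgm1 averaged 48.0 ± 2.14 and 54.3 ± 7.21 TPM, and Mpc1, a subunit of the mitochondrial pyruvate carrier, 42.1 ± 3.74 and 38.3 ± 5.40 TPM.

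The genes beside Higd1a on chromosome 9 included others that rose. Within 200 kb of its span lie 25 other annotated genes, of which 13 reached 1 TPM in at least 1 library and 10 were tested. Limma called 3 of these higher (1.53% of all genes tested were) and 0 lower. In the Control libraries all 3 stayed below 0.4 TPM, and Chd4KO alone carried them past the filter, so their count is a description and no measure of the neighbourhood.

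Ccdc13, a coiled-coil protein gene linked to cilia, at chr9:121797627-121839461, had 3, 15, 7 and 6 reads in Control and 132, 96, 107 and 71 reads in Chd4KO. Its means were 0.161 ± 0.0575 and 3.85 ± 1.51 TPM (SD, n = 4 each; limma on log2(TPM + 1), 1.999 ± 0.26, adjusted p = 0.00435), called in 18 of 18 alternative fits. Gm17163, an antisense gene inside Ccdc13 that shares 203 of its 432 exonic bases with it, had 0 to 2 reads in Control and 26, 29, 25 and 8 in Chd4KO (adjusted p = 0.0139). Without strand, its reads and those of Ccdc13 cannot be told apart there. It was called in 14 of 18 alternatives, and the call ended without Control replicate 1, 2 or 4 or Chd4KO replicate 3 (adjusted p from 0.0520 to 0.0600).

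Gm47112, the antisense gene at chr9:121857680-121859209 that overlaps the Higd1a start, had 0 to 3 reads in Control and 52, 33, 59 and 49 in Chd4KO (adjusted p = 0.00119). The libraries being unstranded, its reads and those of Higd1a cannot be told apart where they overlap. In all 3 of these genes every Chd4KO library was above every Control (3.54% of all genes tested were).

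Of the neighbours below the filter that reached 1 TPM in a library, Klhl40, Hhatl and 1700048O20Rik also had all Chd4KO libraries above all Controls. Gm47108 and Fam198a, which stayed under 1 TPM in every library, did so too. The share of such genes below the filter was not computed. Klhl40, a muscle gene, had 20 reads over the 4 Control and 86 over the 4 Chd4KO libraries (a fit without the filter, adjusted p = 0.0282), Hhatl 48 and 119 reads (adjusted p = 0.102), and 1700048O20Rik 6 and 153 reads (adjusted p = 0.120).

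The other 7 tested neighbours were not called. Ss18l2 had lower levels in all Chd4KO libraries (22.3 ± 2.60 against 16.6 ± 0.721 TPM, SD, n = 4 each; adjusted p = 0.278). Pomgnt2, the most abundant of them, averaged 68.4 ± 4.27 and 94.7 ± 24.8 TPM (adjusted p = 0.377). It was called higher in 3 of 19 alternative fits (array weights, voom, and without Chd4KO replicates 2 and 4), and its groups did not overlap after median-of-ratios scaling. Vipr1, Sec22c, Nktr, E530011L22Rik and Zfp651 overlapped between groups, with changes from -0.72 to 0.12.

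**Figure D5:**
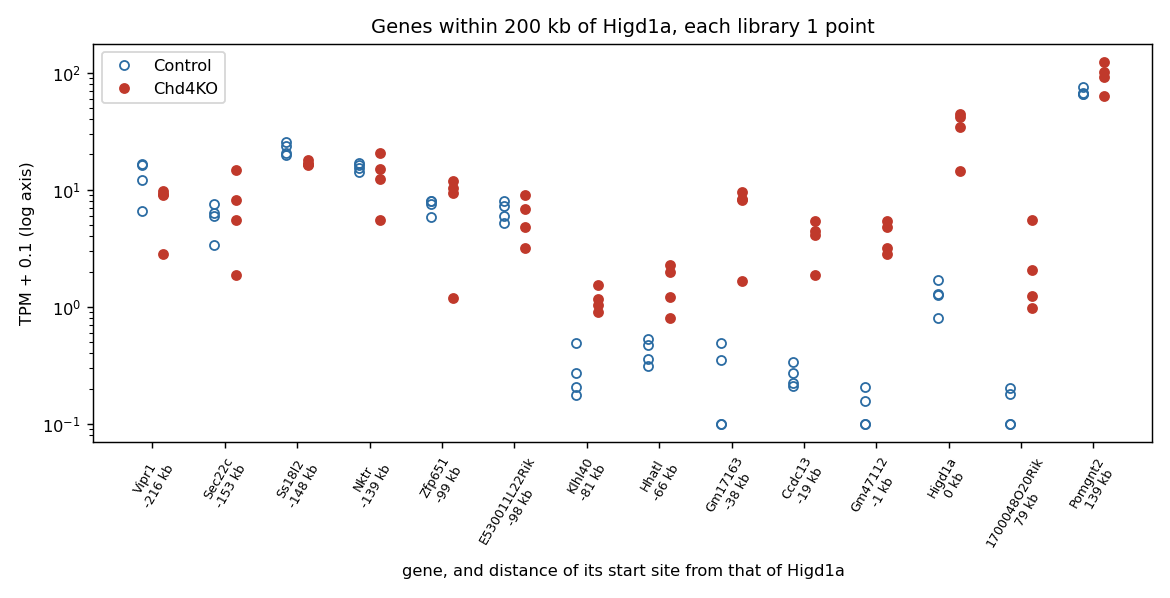
TPM plus 0.1 on a log axis (y) for Higd1a and its 13 neighbours that reach 1 TPM in a library, ordered along the chromosome with the distance of each start site from that of Higd1a (x), 1 point per library, open blue for Control and filled red for Chd4KO. Groups are apart for Higd1a, Ccdc13, Gm17163 and Gm47112 and for the weaker Klhl40, Hhatl and 1700048O20Rik, all higher in Chd4KO, and for Ss18l2, lower in Chd4KO; the other 6 overlap.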

How the data were processed

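The deposited values are TPM per gene (transcript shares summing to 1000000), 1 table for each of the 8 libraries, as the authors' file names state. The submitters' processing notes list build mm10 and the tools HISAT2, HTSeq, DESeq2, Trimmomatic and FastQC; their roles and versions and the annotation release are not given in the sources used here. TPM is a share of a library, so a gene that takes more, such as insulin, lowers the rest.

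GENCODE M21 named 55227 of 55487 identifiers (99.5%). Aldoa has 2 identifiers, and the one that overlaps the RefSeq gene was used; the other held 0.528 to 1.96 TPM. Genes with at least 1 TPM in at least 4 libraries were tested with limma 3.58.1 (R 4.3.3) on log2(TPM + 1), genotype only, two-sided, Benjamini-Hochberg over all 15189 genes, called at adjusted p under 0.05. Fold changes are on that scale, which understates low genes. TPM times exon length came out as whole reads, within 0.05 read, for 98.5 to 98.7% of values, and voom was run on those reads. With 14928092 to 41014291 reads per library, 3 reads of Higd1a equal 0.0533 to 0.140 TPM; reads without molecular identifiers give counting error only. Near copies were found with blastn 2.17.0.

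The members and lists were chosen with earlier results of these data known, and the members are named whole. Named beside them are Chd4, the called genes and the 3 highest by mean TPM of each further list, and neighbours of Higd1a within 200 kb that reach 1 TPM. P4ha1, Slc2a1, Ndrg1, Ldha and Hk1 were added after their values were seen. Values of some genes that the rule names are not reported here. Alternatives covered the pseudocount, filter, scaling, variance model, library weights, replicate block, voom and each library left out.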

Additional observations from a re-analysis of the deposited data

Results flagged for a closer look

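In 134 groups of 4 libraries examined, 11 held a library whose gap to the nearest other exceeded Dixon's 95% critical share of the group's range; chance gives about 1 in 20. Chd4KO replicate 4 was the outlying library 4 times: low for Egln1 (12.9 TPM, the others 28.4 to 29.6), Pgm1 (43.6 TPM) and Vipr1 (2.75 TPM), and high for Elob (107 TPM). Chd4KO replicate 2 was high for Bnip3 (324 TPM, the next library 119 TPM) and, at very low levels, for Slc16a3 (0.160 TPM) and Higd1c (0.694 TPM, 3 reads). Control replicate 1 was high for Egln2 (73.2 TPM), Pfkl (39.2 TPM) and Higd1b (0.500 TPM, 3 reads), and Control replicate 2 was high for Pomgnt2 (74.8 TPM). Higd1a was not among them.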

How the results depend on the processing

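Higd1a stayed called, in the same direction, under all 19 alternatives (adjusted p from 7.06e-05 to 0.00628). No other member was called except with array weights, which gave 2 members higher, Higd1a and Pklr, and 2 lower, Vegfa and Pfkfb2. The number of genes called over the whole table was less stable than the members: 451 in the planned fit, 1364 with array weights, 724 with median-of-ratios scaling, 743 with quantile normalisation, 782 with voom, 220 at a minimum of 5 TPM and 785 without Chd4KO replicates 2 and 4. With 1 library left out it ran from 171 (without Control replicate 4) to 829 (without Chd4KO replicate 4). It fell to 175, 219 and 237 without Control replicate 2, 3 or 1 and to 242 without Chd4KO replicate 3. Calls split 233 higher to 218 lower as deposited (51.7% higher), 444 to 280 with median-of-ratios scaling (61.3%) and 498 to 284 with voom (63.7%).

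The replicate block was tried although nothing says that equal numbers share a mouse, litter or day. It gave 274 genes and kept Higd1a (adjusted p = 0.00582), and deviations of same-numbered libraries correlated at -0.024, 0.425, 0.077 and 0.038, so the numbers were not taken as pairs. Over 55 named genes and all alternatives, 79 of 1040 changes took another sign, each in a gene not called, and 0 called changes reversed. At these read numbers Epas1, Car9, Hif3a and Slc16a3 are too low for a change to be judged.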
